A study of Mus musculus with 36 samples.

Results

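Ier3, Ier2 and Junb were followed through a tetracycline time course in NIH3T3 cells. Every probe whose platform gene symbol was 1 of these names was taken, over all groups, which gave 3 genes of the 9930 named on the array and 4 of its 20355 probes. Ier3 was read by 2 probes, numbered 16646 and 18005, Ier2 by probe 7146 and Junb by probe 1709. The genes were picked for their course in these arrays, so their own levels and differences are given as a description, without a test.

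The cells were NIH3T3, an immortalised mouse embryonic fibroblast line, carrying a transfected Erbb2 gene in a tet-off system, where added tetracycline is meant to switch the transgene off. Erbb2 encodes a growth factor receptor with tyrosine kinase activity, related to the EGF receptor. Total RNA was hybridised to two-colour cDNA arrays, with 4 arrays for cells after each of 1, 2, 4, 12 and 24 h and 3, 5 and 7 days of tetracycline, followed by 4 arrays for untreated cells. The second channel held RNA of untreated Erbb2-transfected cells on all arrays by its source name, while the protocols speak of organs and of a pool from control animals, and the design text names untreated lines that differ, so the denominator of the ratios is not settled. The tetracycline dose, whether the cells are a single clone and whether replicates are separate cultures are not given in the sources used here. P-values below measure only the spread between these arrays, which may be technical. No probe carried the name Erbb2 (0 of 20355), so the shutdown of the transgene was not checked, and ratios give no level by which fibroblast markers could be checked.

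Immediate early genes are transcribed within minutes of a growth factor or stress signal without new protein synthesis, and many of their RNAs are short-lived. In fibroblasts they are the classical response to serum and to receptor tyrosine kinases, in large part through the ERK pathway and the serum response factor. Ier3 encodes a stress-inducible membrane-associated protein that modulates ERK signalling and apoptosis and is a known target of NF-kB and p53. Ier2 encodes a growth factor-inducible, proline-rich nuclear protein. Junb encodes a basic leucine zipper subunit of the AP-1 transcription factor, which can oppose its relative Jun.

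On the GRCm38.p6 build Ier3 (gene ID 15937) lies at chr17:35821713-35822911, Junb (gene ID 16477) at chr8:84976909-84978748 and Ier2 (gene ID 15936) at chr8:84661331-84662852. The 250 bases before the annotated start of Ier3 and of Junb are shown because both genes were high at 7 days while Ier3 alone was high at 2 h, as given further on. They come from RefSeq on GRCm38.p6, at chr17:35821463-35821712 on the plus strand for Ier3 and at chr8:84978749-84978998 on the minus strand for Junb. Capitals mark matches, on either strand, to the TATA box TATAAN, the CCAAT box, the GC box GGGCGG, the core TGACG of the cAMP response element and the kappaB motif.
Ier3: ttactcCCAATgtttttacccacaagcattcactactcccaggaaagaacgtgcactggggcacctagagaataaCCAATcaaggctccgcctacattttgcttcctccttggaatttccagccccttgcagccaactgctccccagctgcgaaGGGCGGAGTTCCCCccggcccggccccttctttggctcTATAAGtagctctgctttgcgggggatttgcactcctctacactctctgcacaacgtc
Junb: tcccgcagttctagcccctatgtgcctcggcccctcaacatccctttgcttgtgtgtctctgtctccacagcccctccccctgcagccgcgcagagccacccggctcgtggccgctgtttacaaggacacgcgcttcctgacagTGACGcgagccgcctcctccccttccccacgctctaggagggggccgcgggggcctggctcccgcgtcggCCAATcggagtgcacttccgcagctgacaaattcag
The Ier3 stretch held a CCAAT box beginning 244 bases before the start and another at 175 bases, the GC box at 96 bases, and the TATA box at 58 bases. A kappaB match, on the minus strand, began 92 bases before the start and overlapped the GC box. The Junb stretch held the response element core at 106 bases and the CCAAT box at 36 bases, while its TATA box match began at the first base of the annotated gene and so lies past the printed stretch. Of 32851 RefSeq windows of 300 bases, which include 50 bases past the start, 24.8% held the TATA box, 37.4% the CCAAT box, 35.7% the GC box, 20.8% the response element core and 4.51% the kappaB motif. The AP-1 motif TGANTCA, the EGR motif GCGNGGGCG, the full cAMP response element and the CArG box, to which the serum response factor binds, had no match in either window. Over all windows the shares holding them were 7.81% for AP-1, 5.55% for EGR, 1.79% for the full element and 1.63% for CArG. Whether any motif bears on the courses of these genes was not tested, and no stretch was available for Ier2.

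Values below are log2 ratios centred on each array's median. Arrays on which Cy3 labelled channel 1 had their sign turned, and a positive value is read as more RNA in the treated cells. This direction was assumed, since no file settles which channel is the numerator. Before turning, the Cy5 and Cy3 means had opposite signs in each of the 24 pairs of gene and time, and after turning they had the same sign in 24 of 24. The genes were picked on turned values, so this agreement is no check of the turning. Without turning, the differences from untreated shrank to 0.13, 0.08 and 0.15 for Ier3 over 1 to 4 h, 12 to 24 h and 3 to 7 days. Untreated replicates 1 and 2 were the same column apart from a constant of 0.771, with an SD of 0.0005 over 19772 values, so they were counted as 1 array, leaving 3 untreated arrays and 35 in all. Between 17508 and 20010 probes had a value per array; arrays carry no read depth, and their number sets the precision. The interquartile range of an array's log2 values was 0.694 to 1.419 at 3 to 7 days, 0.357 to 0.504 at 1 to 24 h and 0.492 to 0.700 untreated. This wider spread moves with the late groups. With quantile normalization, which evens out the spread of the arrays, the differences at 7 days were 1.02 (Ier3), 0.69 (Ier2) and 1.03 (Junb). They were 1.31, 0.90 and 1.30 without it. For Ier3 the difference was 0.73 in place of 0.93 at 5 days, and 1.58 in place of 1.18 at 2 h. Ier3 at 2 h was then above Ier3 at 7 days. The part of the spread in the late results was not tested further.

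In the deposited columns of 5 and 7 days the values slide against the probe rows and were moved back before any of the values given here. All 8 arrays placed the slide at 4 points, which fell at rows 6048, 7312, 7852 and 18319 when the arrays were read together, and 5d replicate 1 was displaced by 1 further row from its first row on. Junb lies before the first point, Ier2 between the first and second, and both Ier3 probes past the third point and before the last. The placement used dye bias, spread and missing values, and not the direction of any treatment effect. Junb at 7 days is therefore untouched by the move, as is Junb at 5 days on 3 of the 4 arrays.

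Ier3 had 3 phases. It was higher than in untreated cells at 1, 2 and 4 h, lower at 12 and 24 h, and higher again at 5 and 7 days, with 2 h and 7 days as its highest groups. On the 4 arrays of 1 h it read 0.50, 0.83, 0.51 and 0.54. At 2 h it read 1.01, 1.50, 1.15 and 1.05, and at 4 h 0.50, 0.30, 0.54 and 0.35. Every one of these 12 arrays lay above the 3 untreated arrays, which read -0.15, 0.04 and 0.06.

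The mean at 2 h was 1.18 ± 0.22 (SD, n = 4), against -0.02 ± 0.12 untreated (SD, n = 3). In the linear model, with a dye effect per gene, the difference was 1.18 (SE 0.18), a treated-to-untreated ratio of 2.27. At 1 h and 4 h the differences were 0.60 and 0.43 (SE 0.18 each). The background for such separation was 3.83% of 14866 features (genes, or single probes without 1 symbol) at 1 h, 6.61% at 2 h and 4.11% at 4 h, counting those with all treated values above all untreated values. Since the same contrasts served to pick the gene, nothing is read from these shares.

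By 12 h Ier3 was on the other side of the untreated arrays. It read -0.37, -0.68, -0.39 and -0.46 at 12 h and -0.26, -0.87, -0.51 and -0.74 at 24 h. All 8 arrays were below all 3 untreated arrays. The differences were -0.47 at 12 h and -0.59 at 24 h (SE 0.18 each). In total RNA of a culture, fewer cells of a type and less RNA per cell cannot be told apart. At 3 days the values were -0.44, -0.56, -0.41 and 0.08. The others lay below all 3 untreated arrays and the last array above them, so the group was not separated. That array, 3d replicate 4, had the widest spread of all 36, with an interquartile range of 1.419.

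The late values of Ier3 were 1.11, 0.99, 0.74 and 0.86 at 5 days and 1.53, 1.54, 1.03 and 1.13 at 7 days. None overlapped the untreated arrays or the arrays of 12 h to 3 days. The mean at 7 days was 1.31 ± 0.26, against -0.02 ± 0.12 untreated, and the difference was 1.31 (SE 0.18), a ratio of 2.48. At 5 days it was 0.93 (SE 0.18), a ratio of 1.91. In order from low to high the groups ran 24 h, 12 h, 3 days, untreated, 4 h, 1 h, 5 days, 2 h and 7 days. Between neighbours in this order the ranges overlapped at every step except from untreated to 4 h, so 2 h and 7 days are not separated by these arrays.

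**Figure D1:**
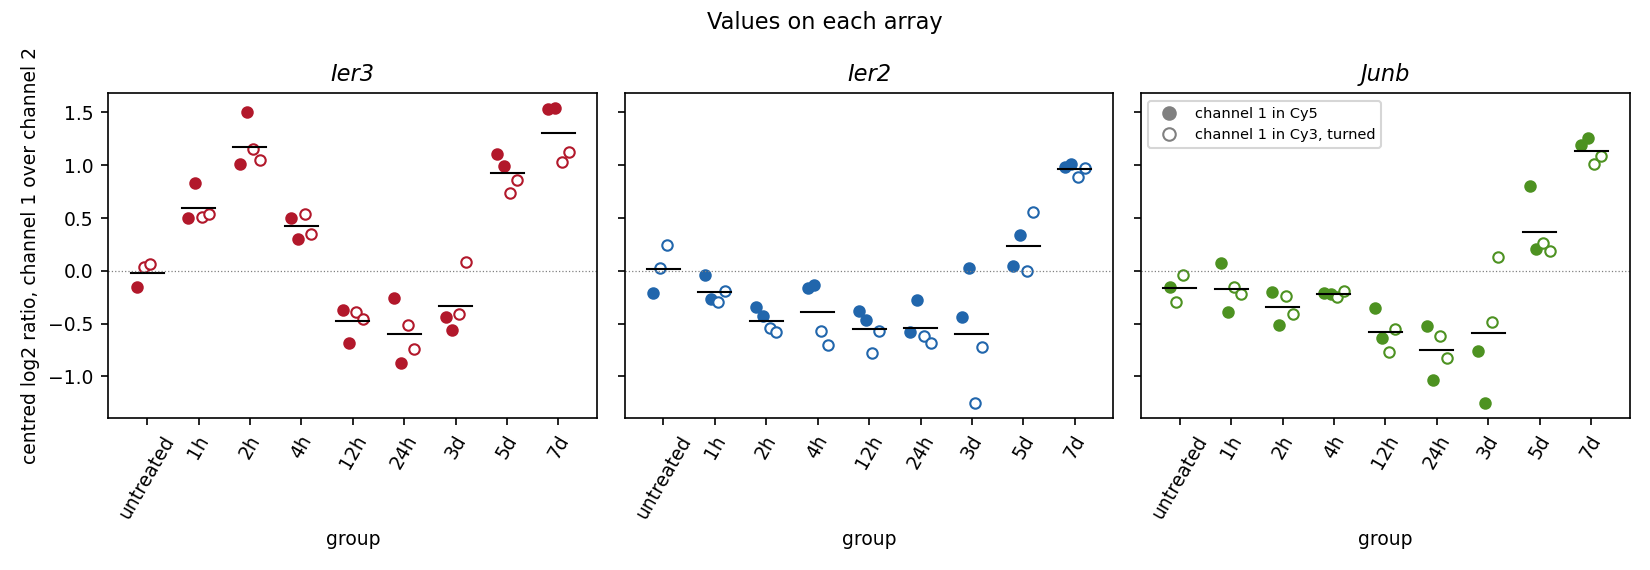
Each point is the centred log2 ratio of channel 1 over channel 2 on 1 array, by group, with untreated at the low end of the time course, filled for channel 1 in Cy5 and open for the turned Cy3 arrays; bars are group means. Ier3 stands at 1.18 at 2 h where Ier2 and Junb stand at -0.47 and -0.34, and all 3 genes are near or above 1 at 7 days.

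The 2 Ier3 probes gave the same course. Across the 35 arrays their Spearman rho was 0.91, and they had the same sign on 33 arrays; these points share array, dye and transcript, so the value describes how well the readings repeat. At 2 h probe 16646 read 0.74, 1.44, 1.30 and 1.09 and probe 18005 read 1.29, 1.55, 1.01 and 1.00. Their differences from untreated were 1.16 (SE 0.21) and 1.21 (SE 0.20). At 7 days the differences were 1.41 (SE 0.21) and 1.21 (SE 0.20). The low phase was deeper on probe 18005, at -0.61 and -0.75 for 12 and 24 h (SE 0.20 each), than on probe 16646, at -0.33 and -0.42 (SE 0.21 each). On probe 16646 the arrays of 12 h and of 4 h overlapped the untreated ones. The largest gap between the probes on any array was 0.76.

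**Figure D2:**
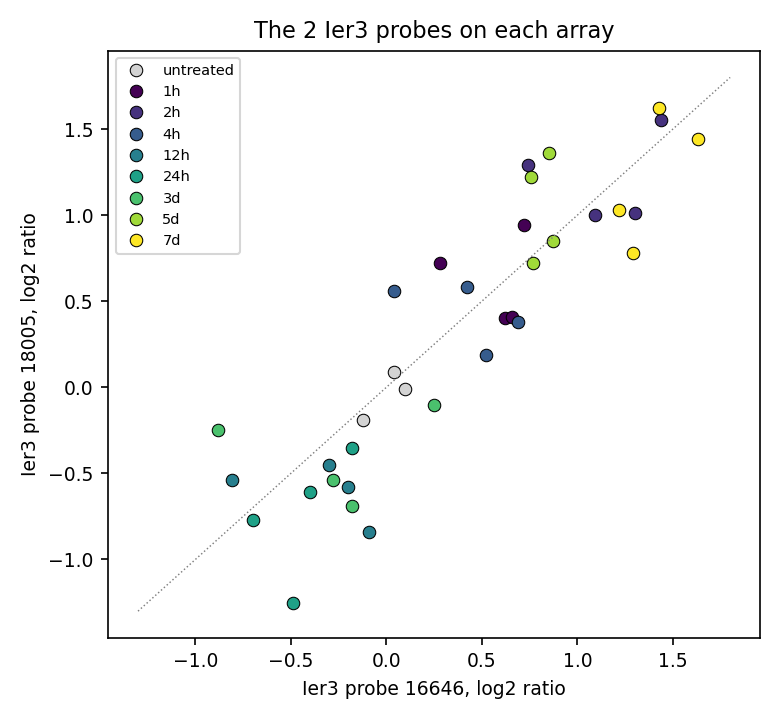
Each point is 1 of the 35 arrays, with the log2 ratio of Ier3 probe 16646 on the horizontal and of probe 18005 on the vertical axis, coloured by group; the dotted line marks equal readings. The arrays of 2 h, 5 days and 7 days lie at the upper right, those of 12 h and 24 h at the lower left, and rho is 0.91.

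The late Ier3 values depend on the row placement. On the rows as deposited, probe 16646 read -1.58, -0.47, -0.36 and -1.11 at 5 days and -1.37, 1.20, 0.05 and 0.57 at 7 days. Probe 18005 read 0.25, 0.12, 0.19 and 0.36 at 5 days and 0.06, 0.01, 0.39 and 0.37 at 7 days. Read this way the 2 probes do not give a common value. After the move probe 16646 read 0.85, 0.76, 0.77 and 0.87 at 5 days, and probe 18005 1.36, 1.22, 0.72 and 0.85. At 7 days probe 16646 read 1.43, 1.63, 1.29 and 1.22, and probe 18005 1.62, 1.44, 0.78 and 1.03. All 16 readings were then positive. Ier3 was picked on moved values, so the agreement of its probes is no check of the move. Over other genes with 2 probes past the first point, the probe pairs hardly agreed on either placement. At 5 days their Spearman rho was 0.038 as deposited and 0.044 moved back, and at 7 days -0.025 and 0.061. At 24 h, where nothing was moved, it was 0.058. With the rows as deposited the mean Ier3 difference over 3, 5 and 7 days was -0.13, against 0.64 after the move.

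**Figure D3:**
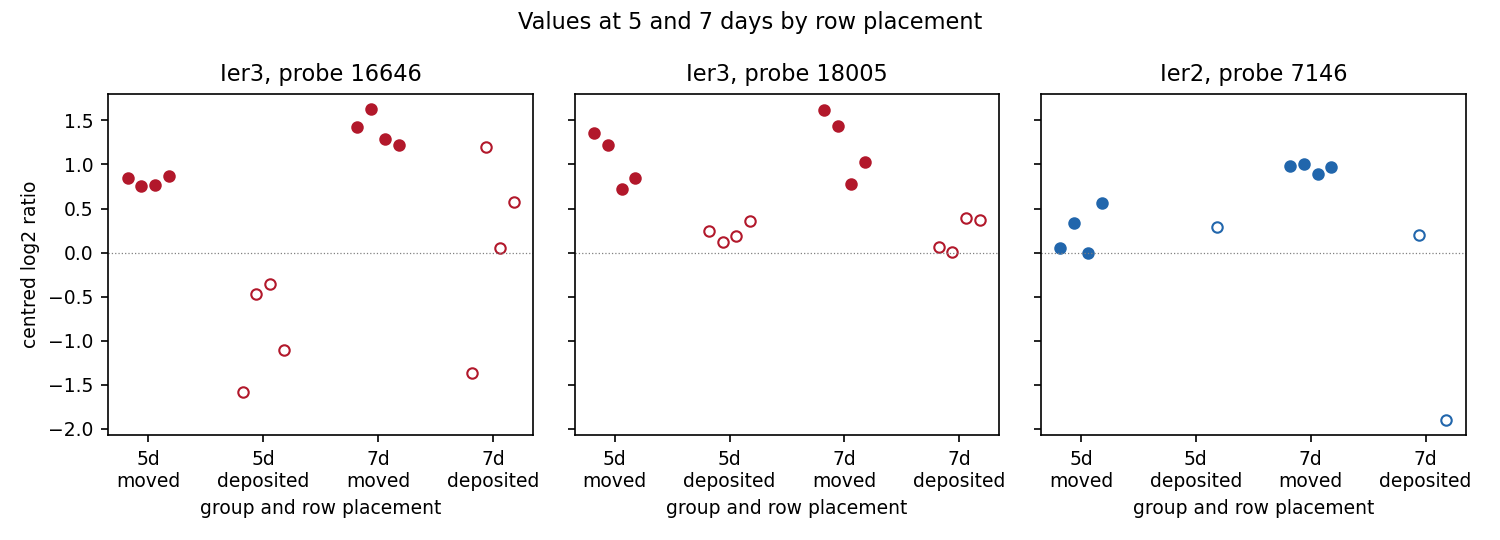
Centred log2 ratios of both Ier3 probes and of the Ier2 probe on the 4 arrays each of 5 and 7 days, filled after the values were moved back and open on the rows as deposited. After the move the Ier3 probes read 0.72 to 1.63, while on the deposited rows probe 16646 runs down to -1.58 and Ier2 has a value on only 3 of 8 arrays.

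Ier2 lacked the early high phase of Ier3. At 1 h it read -0.04, -0.27, -0.30 and -0.19, which overlapped the untreated values of -0.21, 0.03 and 0.24. At 2 h it read -0.34, -0.43, -0.54 and -0.58, all below the untreated arrays. The difference at 2 h was -0.53 (SE 0.19), a ratio of 0.69, where Ier3 was at 2.27.

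At 4 h Ier2 read -0.16 and -0.13 on the Cy5 arrays and -0.57 and -0.70 on the Cy3 arrays, so the group overlapped the untreated one and the split followed the dye. It read -0.38, -0.47, -0.78 and -0.57 at 12 h and -0.58, -0.28, -0.62 and -0.68 at 24 h. All 8 of these arrays lay below the untreated ones, with a difference of -0.60 at both times (SE 0.19 each). At 3 days the Cy5 arrays read -0.44 and 0.03 and the Cy3 arrays -1.25 and -0.72, so the split again followed the dye. This group reached into the untreated range and had an SD of 0.54. The single untreated Cy5 array, at -0.21, weighs on these values: without it the mean difference over 1 to 4 h was -0.62 in place of -0.41, and over 12 to 24 h -0.81 in place of -0.60. Without untreated replicate 4, at 0.24, the values were -0.26 and -0.45.

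At 5 days Ier2 read 0.05, 0.34, 0.00 and 0.56 and overlapped the untreated arrays. At 7 days it read 0.98, 1.01, 0.89 and 0.97. These 4 arrays had an SD of 0.05 and stood above every other array of the gene. The mean was 0.96 at 7 days, against 0.02 ± 0.23 untreated (SD, n = 3), and the difference was 0.90 (SE 0.19), a ratio of 1.87. The sign rests on the row placement: on the deposited rows 7 days had 2 values, 0.20 and -1.90, and the difference was -0.94. In order from low to high the groups ran 3 days, 12 h, 24 h, 2 h, 4 h, 1 h, untreated, 5 days and 7 days, and the step from 5 to 7 days was the only one without overlap.

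Junb, the AP-1 subunit, was not separated from the untreated arrays through 4 h. It read 0.07, -0.39, -0.15 and -0.22 at 1 h, and -0.20, -0.51, -0.24 and -0.41 at 2 h. At 4 h the 4 arrays were close together, at -0.21, -0.22, -0.25 and -0.19. The untreated arrays read -0.15, -0.30 and -0.04, and each of these 3 groups overlapped them. The differences were -0.01, -0.18 and -0.05 (SE 0.21 each), all smaller than their SE.

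The low phase was shared with the other genes. Junb read -0.35, -0.64, -0.77 and -0.55 at 12 h and -0.52, -1.03, -0.62 and -0.83 at 24 h, all below the untreated arrays. The differences were -0.41 and -0.58 (SE 0.21 each). At 3 days it read -0.76 and -1.25 on the Cy5 arrays and -0.48 and 0.13 on the Cy3 arrays. The array with the positive value was again replicate 4, as for Ier3. The gap between the Cy5 and Cy3 means was 0.82, the widest of the 24 pairs of gene and time. For Ier2 at 3 days the Cy3 arrays were the lower ones.

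At 5 days Junb read 0.80, 0.21, 0.26 and 0.19, with the first array far from the other 3. That array is 5d replicate 1, the only one whose Junb value was moved, and it read -0.64 on its deposited row. Without the move the group overlapped the untreated arrays. At 7 days Junb read 1.19, 1.26, 1.01 and 1.09, on rows that needed no move. The mean was 1.14 ± 0.11, against -0.16 ± 0.13 untreated, and the difference was 1.30 (SE 0.21), a ratio of 2.47. The groups ran, low to high, 24 h, 3 days, 12 h, 2 h, 4 h, 1 h, untreated, 5 days and 7 days, without overlap at the last 2 steps only.

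Set side by side, Ier3 was apart from the other 2 genes at 1 to 4 h, and at 12 and 24 h all 3 were on the same side. All treated values lay above all untreated values for 1 gene at 1 h, 2 h and 4 h each (Ier3), and below them for 1 gene at 2 h (Ier2), against 3.84% of features below at 2 h. At 12 h and at 24 h all 3 lay below, where the share over all features was 2.81% and 2.73%. At 3 days 0 of 3 were separated (2.27% above and 2.28% below over all features). At 5 days 2 of 3 lay above (4.85%), and at 7 days all 3 (3.69%). The genes were picked on these contrasts and the 8 comparisons share the same 3 untreated arrays, so the counts describe the genes and carry no test.

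**Figure D4:**
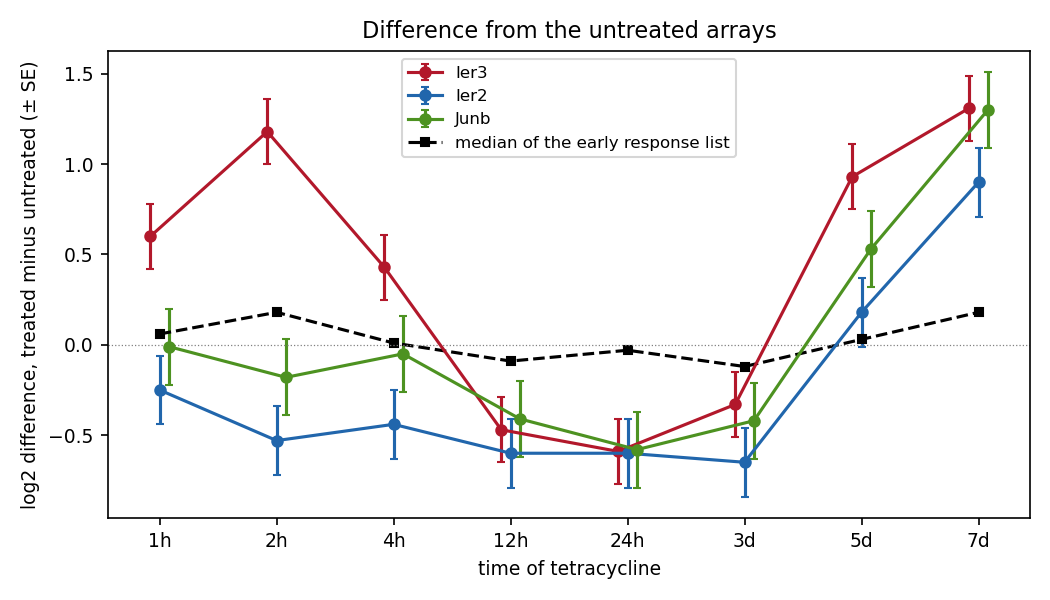
Points are log2 differences, treated minus untreated, with SE bars from the linear model, against the time of tetracycline; squares give the median of the other early response genes. Ier3 is apart from Ier2 and Junb from 1 to 4 h, the 3 genes lie between -0.41 and -0.60 at 12 and 24 h, and they reach 1.31, 0.90 and 1.30 at 7 days while the list median is 0.18.

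The gap between genes can be read within an array, where the untreated group enters only as a further value. Ier3 minus Ier2 was 1.65 ± 0.23 at 2 h (SD, n = 4) and -0.04 ± 0.13 untreated (SD, n = 3). Ier3 minus Junb was 1.52 ± 0.34 at 2 h and 0.15 ± 0.17 untreated. At 24 h these gaps were -0.05 ± 0.39 and 0.16 ± 0.08, near their untreated values. At 5 days Ier3 was again above both, by 0.69 ± 0.31 over Ier2 and 0.56 ± 0.21 over Junb, while at 4 h these gaps were 0.81 ± 0.32 and 0.64 ± 0.13. At 7 days the gap was 0.35 ± 0.22 against Ier2 and 0.17 ± 0.16 against Junb. Ier2 minus Junb averaged between -0.18 and 0.21 in all groups, with the widest spread at 3 days (0.00 ± 1.01). These are differences between log2 ratios and not between RNA levels of the genes.

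Across all 35 arrays Spearman's rho was 0.73 between Ier3 and Junb, 0.65 between Ier2 and Junb and 0.50 between Ier3 and Ier2. Arrays of a group share their treatment and all share a type of reference, so these are descriptions. Over the 9 group means rho was 0.95 for Ier2 and Junb, 0.77 for Ier3 and Junb and 0.72 for Ier3 and Ier2.

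A list of other immediate early genes and of ERK feedback genes and targets shows whether the members' course was general. Of 67 listed names 43 were on the array, and 33 to 39 had enough values at a given time. With limma and Benjamini-Hochberg adjustment over all features, 0 of 36 passed at 1 h, and 0.175% of all features did. At an unadjusted limma p under 0.05 there were 3 of 36 at 1 h, where 4.9% of all features were. From 2 to 24 h there were 4 at each time, where 3.83% to 5.74% of all features were. At 3, 5 and 7 days there were 7 of 35, 7 of 33 and 6 of 33, where 12.6%, 11.1% and 11.2% of all features were. All times share the same untreated arrays, so nothing is read from these counts. The median difference of the joined list lay between -0.12 at 3 days and 0.18 at 2 h and 7 days. The median of all features was 0.00 to 0.02. Its 7 ERK feedback genes and targets, of which 5 to 7 were tested and 0 called, moved more. Their medians were 0.39 at 1 h, 0.35 at 2 h, 0.15 at 4 h, 0.16 at 12 h and 0.01 at 24 h. At 3, 5 and 7 days they were -0.14, 0.61 and 0.06. The 3 genes at an unadjusted p under 0.05 at 1 h were all among them. Differences of the joined list were above 0 for 21 of 36 genes at 1 h, 29 of 37 at 2 h and 20 of 39 at 4 h. They were above 0 for 16 of 39 at 12 h and 17 of 36 at 24 h. At 3, 5 and 7 days 13 of 35, 18 of 33 and 23 of 33 were. The share above 0 over all features was not counted, so nothing is read from these numbers.

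Egr1, a zinc finger transcription factor and the best known of the ERK-driven immediate early genes, went the opposite way to Ier3 at 2 and 4 h. It averaged -2.60 ± 0.11 at 2 h and -3.25 ± 0.31 at 4 h (SD, n = 4 each), against -0.40 ± 0.17 untreated (SD, n = 3). The differences were -2.24 at 2 h (limma adjusted p = 5.44e-05) and -2.90 at 4 h (limma adjusted p = 1.78e-06), with an SE of 0.25, and all 4 arrays of both times lay below the untreated ones. Egr1 fell by 2.21 at 12 h (adjusted p = 0.000213), fell by 3.32 at 24 h (adjusted p = 1.34e-07) and fell by 1.46 at 3 days (adjusted p = 0.00943). It was the only gene of the list called at these 5 times, of 35 to 39 tested, where limma called 0.499%, 0.225%, 0.0135%, 0.0203% and 0.568% of all features. Egr1 has no value at 5 and 7 days among the rows kept. The calls at all 5 times were lost without turning the Cy3 arrays (adjusted p 0.972 to 0.995) and in fits of only the 2 groups in question (adjusted p 0.0819 to 0.975). The call at 3 days was also lost without untreated replicate 4 (adjusted p = 0.0815), with quantile normalization (0.669), with array weights (0.149) and on the deposited rows (0.269), where those at 2 h (0.0783) and 12 h (0.439) were lost too.

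At 5 and at 7 days a single gene of the list was called each time. Btg2, an antiproliferative gene induced by p53, rose at 7 days by 1.23 (SE 0.26, limma adjusted p = 0.0139), with a mean of 1.01 ± 0.21 at 7 days and -0.17 ± 0.23 untreated. All 4 arrays, from 0.72 to 1.22, lay above the untreated ones, whose highest value was 0.10. Btg2 was 1 call among 33 genes tested at 7 days, when 0.869% of all features were called, and nothing is read from 1 call. Zfp36l1, which encodes an RNA-binding protein that promotes decay of AU-rich transcripts, rose at 5 days by 0.72 (SE 0.19, adjusted p = 0.0419), when 2.19% of features were called. These 2 were the only genes of the list called at 5 and 7 days, of 33 tested at each. The Btg2 call held in 14 of 19 alternatives; it was lost without turning (adjusted p = 0.939), without centring (0.214), with quantile normalization (0.0539), in the fit of the 2 groups alone (0.974) and without untreated replicate 4 (0.112). The Zfp36l1 call held in only 5 of 19, and 1 of 33 is near the share of all features. It was lost without turning (adjusted p = 0.988), without centring (0.534), with quantile normalization (0.171), with no dye effect (0.136), with the replicate block (0.0551), with array weights (0.0981), on the deposited rows (0.529) and in the fit of the 2 groups alone (0.437). Leaving out any untreated array, or treated replicate 2, 3 or 4, ended it as well (adjusted p 0.0724 to 0.126).

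Other parts of the pathways around the members gave no calls by limma at any of the 8 times. Of the AP-1 and ATF family, the partners and relatives of Junb, 12 of 22 were on the array and 7 to 9 tested, with 0 called and at most 1 at an unadjusted p under 0.05. Their median difference lay between -0.18 and 0.13. Of 22 NF-kB subunits, inhibitors and targets, 17 were on the array and 14 to 17 tested, with 0 called, up to 3 at an unadjusted p under 0.05 and medians of -0.06 to 0.25. Of 25 genes of the ERK pathway and the serum response factor, 12 were on the array and 10 or 11 tested, with 0 called, up to 2 at an unadjusted p under 0.05 and medians of -0.07 to 0.37. Over all features 0.0135% to 2.19% were called and 3.83% to 12.6% had an unadjusted p under 0.05, so fewer than 1 call is what lists of this size would have at the background share, and nothing is read from these counts of 0.

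The genes most like each member were taken as the 5 with the highest Spearman rho over the arrays, among 8907 genes with a value on at least 30 of them. These are descriptions over 35 arrays (33 for Clcf1) that share dyes, reference and, within groups, treatment. For Ier3 they were Mcl1 (0.75), an antiapoptotic relative of Bcl2 with a short-lived RNA, Clcf1 (0.73), a cytokine of the interleukin 6 family, Junb (0.73), Zfand5 (0.72), a zinc finger protein, and Slc38a2 (0.72), an amino acid transporter. At 2 h the group means were 0.56 for Mcl1, 0.57 for Clcf1, 0.45 for Zfand5 and 0.56 for Slc38a2, against 0.15, -0.18, -0.02 and -0.10 untreated, while Junb was at -0.34. Clcf1 reached 1.38 at 7 days, close to Ier3 itself.

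For Ier2 the nearest genes were Nfkbia (0.83), the inhibitor of NF-kB that is itself induced by NF-kB, Bcl6 (0.78), a transcriptional repressor, Dbnl (0.76), Tkfc (0.76) and Angptl4 (0.74), a secreted inhibitor of lipoprotein lipase. Nfkbia averaged -1.11 at 12 h and -0.42 untreated, and it ended at 0.05 at 7 days, without the high value of Ier2. Angptl4 averaged 1.46 at 7 days and 0.13 untreated. Dbnl followed Ier2 less closely between groups than between arrays, with a rho of 0.38 over the 9 group means.

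Junb had both other members among its 5 nearest genes, Ier3 at rank 1 and Ier2 at rank 5 (0.65). Between them came Ccn1 (0.70), an immediate early matricellular protein, Calr (0.66), a chaperone of the endoplasmic reticulum, and Cxcl1 (0.65), a chemokine first found as a growth-regulated early gene. Ccn1 averaged -0.91 at 24 h and -1.05 at 3 days, against -0.07 untreated, and 0.82 at 7 days. Calr followed Junb less closely between groups, with a rho of 0.43 over the 9 group means. It averaged 0.78 at 2 h, where Junb was at -0.34. Mcl1 and Ccn1 are also on the early response list, and Nfkbia and Cxcl1 on the NF-kB list. None of them was called at any time. Seen from Ier2, Junb ranked 26 and Ier3 182, and seen from Ier3, Ier2 ranked 90. The members were picked for their course in these arrays, so their ranks to each other are a description only.

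**Figure D5:**
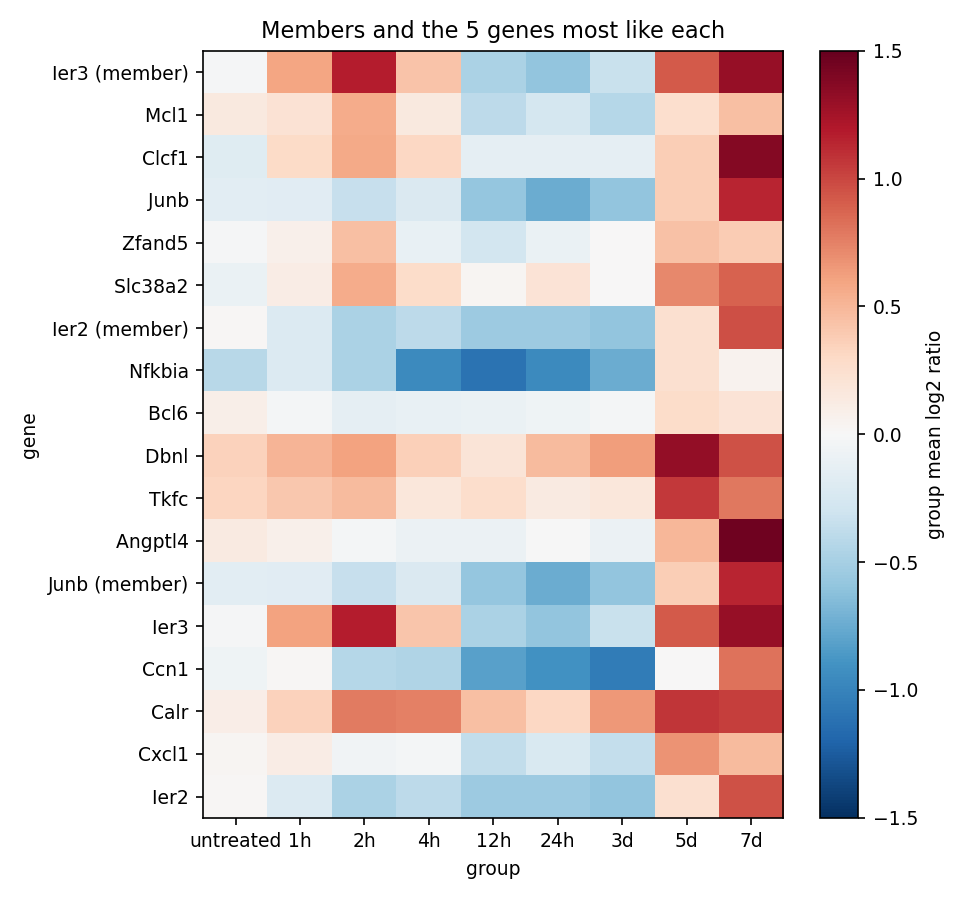
Colours give the mean log2 ratio of each group, red above and blue below 0, for each member and the 5 genes with the highest Spearman rho to it over the arrays. Mcl1, Clcf1, Zfand5 and Slc38a2 read 0.45 to 0.57 at 2 h, where Ier3 is high and Junb is not, and Ccn1 shares with Junb the low values at 24 h and 3 days and the high value of 0.82 at 7 days.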

How the data were processed

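The authors deposited log2 ratios of 2 channels per probe and array, per the file's values; the software, background correction, normalization and numerator are not given in the sources used here. Of 20355 probes, 14030 had 1 gene symbol, 5 several and 6320 none listed. From the deposited log2 ratios, the 2807 values above 12 were dropped, arrays were centred on their median, Cy3 arrays were multiplied by -1 and untreated replicates 1 and 2 were averaged. Values of 5 and 7 days were moved back to their rows by a hidden Markov model on dye bias, spread and missingness, and 273 probes were left out there. In 5 simulations the same 4 rows were dropped from all 8 arrays of 24 h and 3 days, and 99.985% to 100% of kept rows were placed right. No simulated array was displaced from its first row as 5d replicate 1 was, so that step was not covered.

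Probes of a gene were averaged. All 35 arrays entered 1 fit with limma 3.58.1 (R 4.3.3), with group means and a dye effect per feature. Features needed at least 3 values in both groups, and an adjusted p under 0.05 over all features was called. The fit was tested on simulated data. The replicate numbers were not taken to pair samples. Deviations of same-numbered arrays of different groups had a mean r of 0.018, from -0.172 to 0.159. For arrays of other numbers it was -0.006, from -0.181 to 0.205. Still, 19 of 35 arrays correlated best with their own number, more than an even share over the numbers would give. No array column was left unused (0).

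Named were the members, the 5 genes most like each, and any listed gene called at any time. Members and lists were chosen with earlier results of these data known. Alternatives covered turning, centring, quantile normalization, dye terms, contrasts against 0, row placement, the duplicate, array weights, the arrays fitted and leaving out each replicate.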

Additional observations from a re-analysis of the deposited data

Results flagged for a closer look

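Chance marks about 1 in 20 groups of 4 in this way, and 2 of 24 groups were marked. Ier3 at 1 h had 1 array, replicate 2 at 0.83, far from the other 3 at 0.50, 0.51 and 0.54, with a gap of 0.887 of the group's whole range. Junb at 5 days had replicate 1 at 0.80, far from 0.19, 0.21 and 0.26, with a gap of 0.888 of the range, and this is the array displaced by 1 row from its start.

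For Ier3 every array of 12 h was below 0 and every array of 4 h above 0. The difference between the effects at 12 h and at 4 h was -0.90 on the log2 scale, and it was not tested, since the gene was chosen for its course.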

How the results depend on the processing

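Of the 9 member values (3 genes over 3 phases), the mean differences were 0.74, -0.53 and 0.64 for Ier3 over 1 to 4 h, 12 to 24 h and 3 to 7 days, -0.41, -0.60 and 0.15 for Ier2, and -0.08, -0.50 and 0.47 for Junb. The span of 3 to 7 days joins differences of opposite sign. At 3 days they were -0.33 (Ier3), -0.65 (Ier2) and -0.42 (Junb), and at 7 days 1.31, 0.90 and 1.30. Without turning, Ier3 gave 0.13, 0.08 and 0.15, Ier2 0.29 and 0.28 in the first phases, and Junb -0.03 and -0.12 in the last ones, so 4 signs changed. On the deposited rows the last phase was -0.13 for Ier3 and -0.40 for Ier2. Quantile normalization gave 1.02 (Ier3), -0.71 (Ier2) and -0.22 (Junb) for 1 to 4 h, no centring 0.56 (Ier3) and -0.26 (Junb), and treated means against 0 gave -0.24 (Junb). Leaving out each replicate gave -0.62 to -0.26 and -0.81 to -0.45 for the first phases of Ier2. The other ranges kept their sign except Ier2 at 3 to 7 days (-0.06 to 0.29). Without centring, Ier2 at 3 to 7 days changed sign as well, to -0.05.

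Counts of called list genes were 0 at 1 h and 1 at each later time. Without turning they were 0 at 2, 4, 12 and 24 h and 7 days, and 2 at 3 days. When a fit held only the 2 groups in question they were 0 throughout. On the deposited rows they were 0 at 2 h, 12 h, 3 days and 5 days. Array weights gave 4, 4, 2, 4, 3 and 0 for 1 h to 3 days. Treated means against 0 gave 4 at 2 h, 3 at 12 and 24 h, and 6, 4 and 5 at 3, 5 and 7 days. Quantile normalization gave 1 at 1 h and 0 at 3, 5 and 7 days; no centring gave 2 at 3 days and 0 at 5 and 7 days. Fitting the dye within every group gave 3, 2 and 4 at 3, 5 and 7 days, no dye effect 0 at 5 days, and the duplicate kept as 2 arrays gave 2 at 3, 5 and 7 days. Without the arrays of 3, 5 and 7 days, an alternative chosen after seeing the data, 1 gene was called at 1 h and 2 at 12 and 24 h. With the replicate number as a block the count at 5 days was 0; the replicate block changed no other count, and that 19 of 35 arrays correlated best with their own number is a hint from the data, not the design. Leaving out each replicate gave 0 to 1 at 1 h, 1 to 2 at 12 h, 0 to 3 at 3 days, 0 to 1 at 5 days and 0 to 2 at 7 days. The cause was not tested in any of these. Over all features limma called 26, 75, 34, 2, 3, 80, 317 and 123 for 1 h to 7 days; every time had an alternative with 0, and the highest counts were 715, 1190, 560, 494, 529, 1554, 854 and 906.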
